A study of Homo sapiens with 18 samples.

Results

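The nuclear-encoded subunits of the respiratory chain and ATP synthase were followed in HEK293 cells that overexpress murine TLR5, the Toll-like receptor that binds bacterial flagellin. Members were taken by gene symbol: array rows with exactly 1 symbol that starts with NDUFA, NDUFB, NDUFC, NDUFS, NDUFV, UQCR, COX4, COX5, COX6, COX7, COX8 or ATP5, together with SDHA to SDHD. Assembly factors named NDUFAF, pseudogenes and antisense or divergent transcripts were left out, which removed 14 symbols. The rule gave 73 genes of 22357 genes with 1 symbol on the array. Of the 73, 69 are subunits: 31 of complex I, 2 of complex II, 6 of complex III, 16 of complex IV and 14 of complex V. The other 4 are ATP5IF1, the inhibitor protein of ATP synthase, COX7A2L, a factor that joins complexes III and IV, and UQCRHL and ATP5MGL, which are gene copies of subunits. A total of 71 members passed the filter on low values and were tested among 16111 genes, and COX7B2 and COX8C did not. The core subunits SDHA, SDHB, NDUFS8 and UQCRFS1 are not analysed here.

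The respiratory chain sits in the inner mitochondrial membrane. Complex I takes electrons from NADH and complex II from succinate, both pass them to coenzyme Q, complex III hands them on to cytochrome c, and complex IV reduces oxygen to water. Complexes I, III and IV pump protons, and complex V, the ATP synthase, uses the proton gradient to make ATP. Most subunits are encoded in the nucleus and a few in mitochondrial DNA, so that a complex needs transcripts from both genomes. The nuclear factors NRF1, GABP (an ETS family protein), YY1 and the oestrogen-related receptors are known regulators of these genes.

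Total RNA was measured on 18 arrays in 6 groups of 3: cells given flagellin of Escherichia coli Nissle (EcN), a probiotic strain, flagellin of Salmonella Typhimurium SL1344 (ST), a pathogen, or mock control, each for 60 or 120 min. All cells, mock included, overexpressed murine TLR5, grew in SILAC medium, whose lysine and arginine were heavy, medium or light, and were used at passage 7. The sources used here do not say which amino acid label went with which array, and the number of cell clones is not stated. Flagellin was dosed as for 10 bacteria per cell (multiplicity of infection), and each array took 100 ng of RNA. The 6 ST arrays carry conflicting labels: title, source name and treatment name ST, while the description names mock, and the titles were followed. The arrays of a group are lettered A to C and called biological replicates, but separate cultures are not stated, so the p-values measure the spread between these samples, which may be technical.

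Of 9 genes known from this line, 8 had median levels over the 18 arrays of 4.34 (KRT8) to 10.41 (NEFL), on the log2 scale of all levels given here, and NEFM was at 2.12, below the array medians of 2.27 to 2.32. The blood cell genes PTPRC, CD3E, LYZ, ITGAM and HBB did not pass the filter, while CD14 did, at a median of 2.60. Of the intestinal genes, LGR5 had a median of 8.74, EPCAM 8.0, CDX2 6.01 and CDH17 4.21. VIL1, at 2.36, and MUC2, at 2.45, lay near the array medians. Of the fibroblast genes, LUM was at 5.54, COL1A1 at 4.68 and PDGFRB at 2.11, while COL1A2 and DCN did not pass the filter. Several arrays stood apart. NFKBIA, an NF-kB target that inhibits NF-kB, was high, at 10.15 to 10.85, on array C of all 4 flagellin groups and on mock 120 min A, while the other 13 arrays had 8.09 to 8.82. In addition, array C of mock 120 min lay with the flagellin arrays for many genes, the respiratory chain members among them, as described with the 120 min results. In total RNA, a lower value can reflect fewer cells that express a gene or less RNA of it per cell, and these cannot be told apart.

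The promoters of members differ in their matches to the letters of known control elements. RefSeq promoter windows of GRCh38.p14, which span 250 bases before to 50 bases after a gene's start, were used for 60 of the 73 members. They are shown here for NDUFB2 (chr7:140696588-140696707, plus strand), NDUFB11 (chrX:47144703-47144822, minus strand) and COX7A2L (chr2:42361218-42361337, minus strand), whose levels differed from mock at 60 min, for COX6B1 (chr19:35648203-35648322, plus strand) and COX8A (chr11:63974500-63974619, plus strand), among the members lowest at 120 min, and for UQCRC1 (chr3:48609647-48609766, minus strand), a core subunit with an NRF1 match. Each is the last 120 bases before the start, 5′ to 3′ in the gene's own direction. Capitals mark matches on either strand to the letters GCGCA and GCGC with 1 base of any kind between them (NRF1), CCGGAAG (ETS), AANATGGCG (YY1), TCAAGGTCA (oestrogen-related receptor), GGGCGG (SP1) or TGACGTCA (the cyclic AMP response element, CRE). The CRE was added to the search after the NDUFB2 window had been read.
NDUFB2: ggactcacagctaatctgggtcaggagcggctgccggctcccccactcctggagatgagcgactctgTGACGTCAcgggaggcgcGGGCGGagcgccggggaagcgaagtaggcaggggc
NDUFB11: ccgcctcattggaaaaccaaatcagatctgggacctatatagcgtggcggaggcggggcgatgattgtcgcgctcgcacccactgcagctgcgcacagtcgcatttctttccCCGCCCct
COX7A2L: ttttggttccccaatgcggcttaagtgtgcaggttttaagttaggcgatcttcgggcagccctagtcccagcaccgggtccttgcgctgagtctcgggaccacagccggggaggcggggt
COX6B1: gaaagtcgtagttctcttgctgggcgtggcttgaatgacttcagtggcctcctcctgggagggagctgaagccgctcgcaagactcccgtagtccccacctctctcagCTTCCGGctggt
COX8A: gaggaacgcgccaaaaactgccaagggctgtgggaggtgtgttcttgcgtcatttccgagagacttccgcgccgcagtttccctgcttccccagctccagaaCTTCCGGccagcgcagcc
UQCRC1: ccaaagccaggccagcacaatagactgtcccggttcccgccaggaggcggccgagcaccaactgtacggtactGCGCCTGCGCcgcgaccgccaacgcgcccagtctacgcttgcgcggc

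NDUFB2 carried a CRE that starts 53 bases before its start and an SP1 match 35 bases before it. COX6B1 and COX8A each had an ETS match, 12 and 18 bases before the start, UQCRC1 an NRF1 match 47 bases before it and NDUFB11 an SP1 match 8 bases before it, while these 120 bases of COX7A2L held none of the letters searched. Over the full windows, the NRF1 letters occurred in 14 of 60 members (23.3%), against 8.57% of 15842 windows of protein-coding genes. ETS letters were found in 16 members (26.7%, against 14.2%) and YY1 letters in 13 (21.7%, against 4.81%). The YY1 matches included 9 of the 28 complex I members with a window, and the NRF1 matches 3 of 5 complex III members. At least one of NRF1, ETS and YY1 was present in 33 members (55%), against 24.2% of all windows. SP1 letters did not set the members apart, with 36 members (60%) against 58.5%. The CRE was found in 4 members, NDUFB2, NDUFA10, ATP5MC1 and ATP5ME (6.67%, against 2.59%), and the receptor element in SDHD alone (1.67%, against 0.240%). These matches describe the letters and show no binding, and windows of the other 13 members, NDUFB9 and ATP5F1D among them, were not used here.

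Across the 18 arrays, most members varied little. Of the 73, 68 lay above the array's own median on all 18 arrays, COX6A1 on 15, COX4I2 on 13, COX7A1 on 4, and COX7B2 and COX8C on 0. The SD over all arrays had its lowest value, 0.07, in ATP5F1B, the catalytic beta subunit of ATP synthase, and its highest, 0.42, in COX6A1. NDUFA6, NDUFA9 and NDUFS3 of complex I had SDs of 0.08, 0.09 and 0.09. The 5 most variable members were COX6A1, COX6A2 (0.41), NDUFA3 (0.39), ATP5MGL (0.35) and COX6B1 (0.31), of which COX6A1, COX6A2 and ATP5MGL lay close to the array medians of 2.27 to 2.32 on at least some arrays. The heatmap of all tested members shows weak colours for most genes and a run of blue cells on the EcN 120 min arrays.

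**Figure D1:**
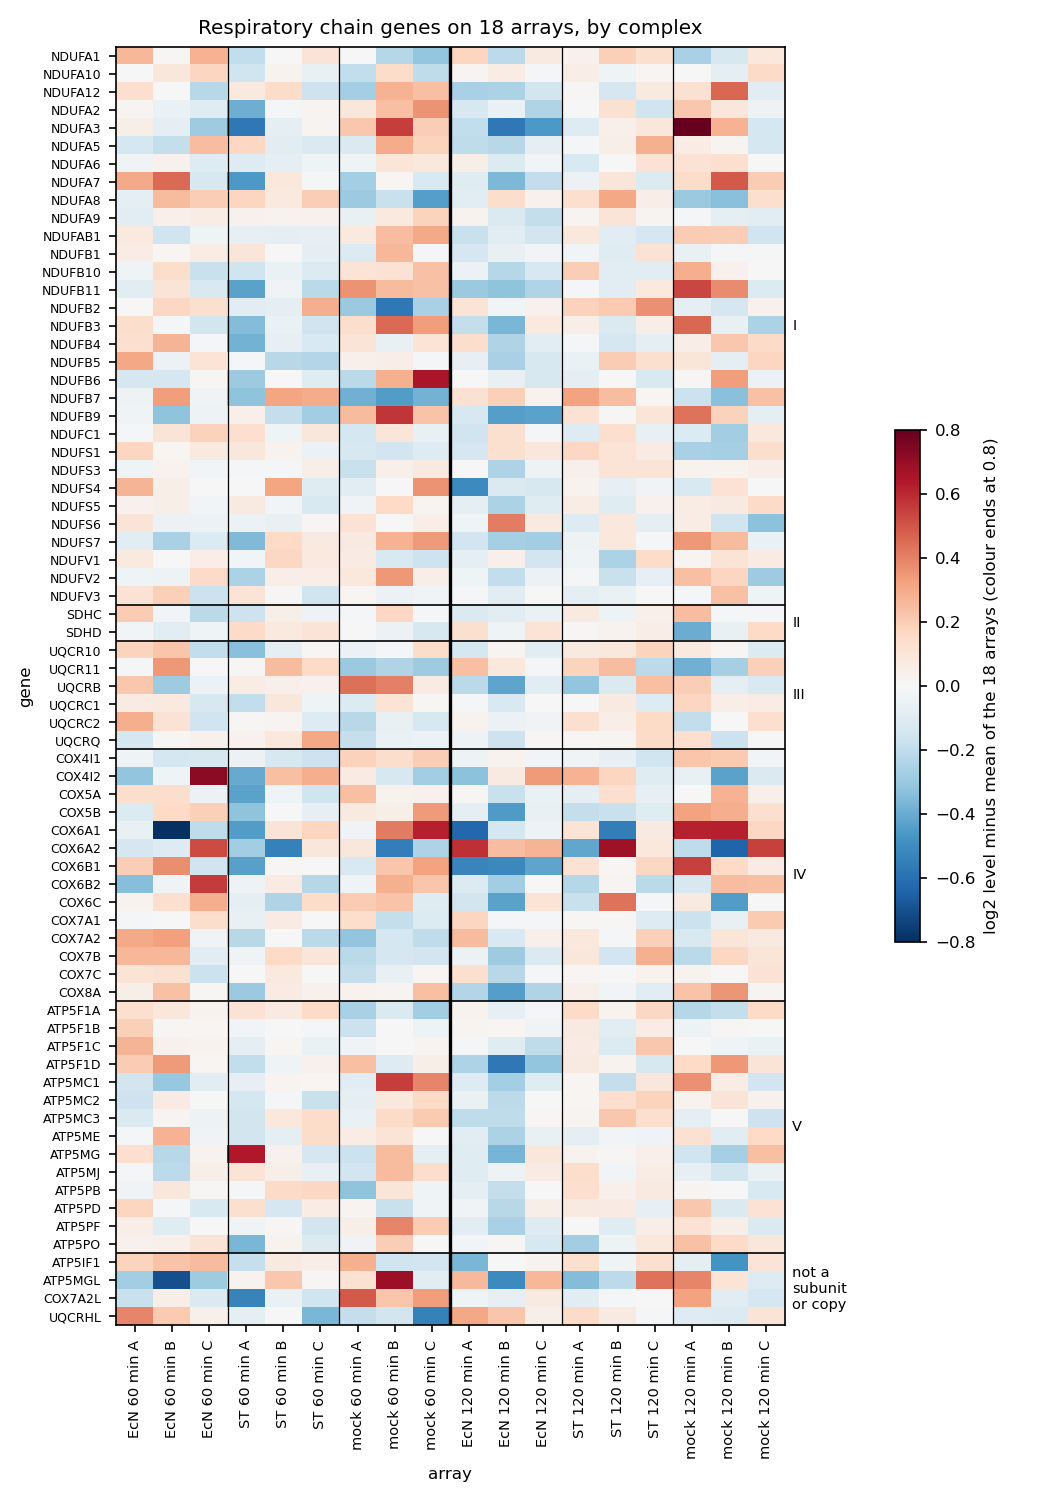
Log2 level of each of the 71 tested members on each of the 18 arrays, as the difference from the member's mean over the arrays, with genes in rows by complex and arrays in columns; the colour ends at 0.8. EcN 120 min A, B and C had 20, 15 and 24 of 71 members above their own mean, the other 15 arrays between 22 and 46.

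At 60 min, each flagellin was set against mock to ask which respiratory chain transcripts differed soon after stimulation; both comparisons use the same 3 mock arrays. With EcN, 2 of 71 tested members rose, NDUFB2 and UQCRHL, and 0 fell, while 3.08% of all genes tested rose and 3.37% fell (6.45% in either direction; 2.5% and 4.51% with arrays centred on their median). With ST, NDUFB2 rose and COX7A2L and NDUFB11 fell, 3 of 71 members, where 2.23% of all genes rose and 3.03% fell (5.26% in either direction). The share of members called was no higher than that of all genes in either comparison. At an uncorrected p under 0.05, 9 members were higher and 12 lower with EcN, and 6 were higher and 13 lower with ST. Of the 16111 genes tested, 2044 reached that p upward and 1958 downward for EcN. For ST these numbers were 1644 and 1975. The counts of members called rest on single arrays, as do those over all genes. Without mock 60 min B or C, the number of members called was 0 with EcN, where 0.0434% and 0.0186% of all genes were called, and 0 with ST, where 0.782% and 0.490% were. Without mock 120 min A it was 8 with EcN and 8 with ST, where 11.5% and 8.11% of all genes were called.

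NDUFB2, an accessory subunit in the membrane arm of complex I, had levels of 3.04, 3.21 and 3.17 on the EcN 60 min arrays and 2.96, 2.97 and 3.33 on the ST 60 min arrays, against 2.75, 2.48 and 2.79 on the mock 60 min arrays. All 6 flagellin arrays lay above all 3 mock arrays, at levels not far above the array medians of 2.27 to 2.32. NDUFB2 rose by 0.47 ± 0.12 with EcN (log2 difference ± SE, 1.39-fold, adjusted p = 0.0294) and by 0.42 ± 0.12 with ST (1.33-fold, adjusted p = 0.0476). Over 28 alternative settings the adjusted p ran from 0.0106 to 0.116 for EcN and from 0.0224 to 0.198 for ST, and the call was lost in 6 and 20 of them. For EcN these were the fit to the 2 groups alone and the fits without mock 60 min B or C or any 1 of the EcN 60 min arrays.

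NDUFB11, another accessory subunit of the membrane arm, encoded on the X chromosome, had levels of 9.58, 9.98 and 9.79 on the ST 60 min arrays, against 10.37, 10.26 and 10.24 on the mock 60 min arrays. Every ST array lay below every mock array, and the ST arrays spread more widely than the mock arrays. NDUFB11 fell by 0.51 ± 0.14 with ST (1.42-fold, adjusted p = 0.0462), and lost its call in 20 of 28 alternatives (adjusted p from 0.00967 to 0.163). On the EcN 60 min arrays it stood at 9.92, 10.11 and 9.89, also below mock, and did not pass the test.

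COX7A2L, which promotes the joining of complexes III and IV into supercomplexes, had levels of 4.08, 4.56 and 4.46 on the ST 60 min arrays, against 5.11, 4.84 and 4.95 on the mock 60 min arrays. The groups did not overlap, and array A of each group was the most extreme. COX7A2L fell by 0.60 ± 0.14 with ST (1.52-fold, adjusted p = 0.0231), the lowest adjusted p of any member in any of the comparisons. The call was lost in 6 of 28 alternatives, among them the fits without any 1 of the mock 60 min arrays and without ST 60 min A or C (adjusted p up to 0.0915). With EcN the 3 arrays stood at 4.44, 4.66 and 4.50, a difference of -0.43 ± 0.14 (adjusted p = 0.0647).

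UQCRHL is a retrotransposed copy of UQCRH, the hinge subunit of complex III that supports the contact with cytochrome c. Its levels were 8.11, 7.93 and 7.76 on the EcN 60 min arrays, against 7.53, 7.57 and 7.18 on the mock 60 min arrays. UQCRHL rose by 0.51 ± 0.13 with EcN (1.42-fold, adjusted p = 0.0353), and its call was lost in 6 of 28 alternatives (adjusted p up to 0.139). Since the copy is close in sequence to its parent gene, signal of UQCRH on these probes cannot be told apart from that of UQCRHL. The ST 60 min arrays, at 7.64, 7.71 and 7.35, overlapped those of mock.

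The remaining members did not pass the test at 60 min. Among the highest was NDUFB7, an accessory subunit of complex I, at 7.24, 7.61 and 7.25 with EcN and 6.96, 7.60 and 7.58 with ST, against 6.89, 6.83 and 6.90 with mock. All flagellin arrays lay above the mock arrays, but ST 60 min A did so by a small margin, and the differences were 0.49 ± 0.17 (adjusted p = 0.0898) and 0.50 ± 0.17 (adjusted p = 0.0933). NDUFA8, an accessory subunit of complex I, differed by 0.43 (adjusted p = 0.0590) with EcN and 0.45 (adjusted p = 0.0547) with ST. UQCR11, a small subunit of complex III, differed by 0.39 and 0.41 with adjusted p of 0.133 and 0.118.

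ATP5F1A, the alpha subunit of the ATP synthase head, stood at 9.36, 9.32 and 9.25 with EcN and 9.34, 9.30 and 9.39 with ST, against 8.96, 9.11 and 8.95 with mock at 60 min. All 6 flagellin arrays were above mock (0.30 ± 0.10 with EcN, adjusted p = 0.0785; 0.33 ± 0.10 with ST, adjusted p = 0.0627). Its partner ATP5F1B, the beta subunit, differed by 0.14 with EcN (adjusted p = 0.307) and 0.06 with ST (adjusted p = 0.732). COX4I1, the regulatory subunit of complex IV, was lower on all 6 flagellin arrays, at 10.92, 10.81 and 10.83 with EcN and 10.91, 10.83 and 10.79 with ST, against 11.14, 11.10 and 11.15 with mock. Its differences were -0.28 ± 0.09 (adjusted p = 0.0648) with EcN and -0.29 ± 0.09 (adjusted p = 0.0624) with ST. NDUFB9, of the membrane arm of complex I, was lower by a similar test, at -0.48 (adjusted p = 0.0551) and -0.49 (adjusted p = 0.0550).

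**Figure D2:**
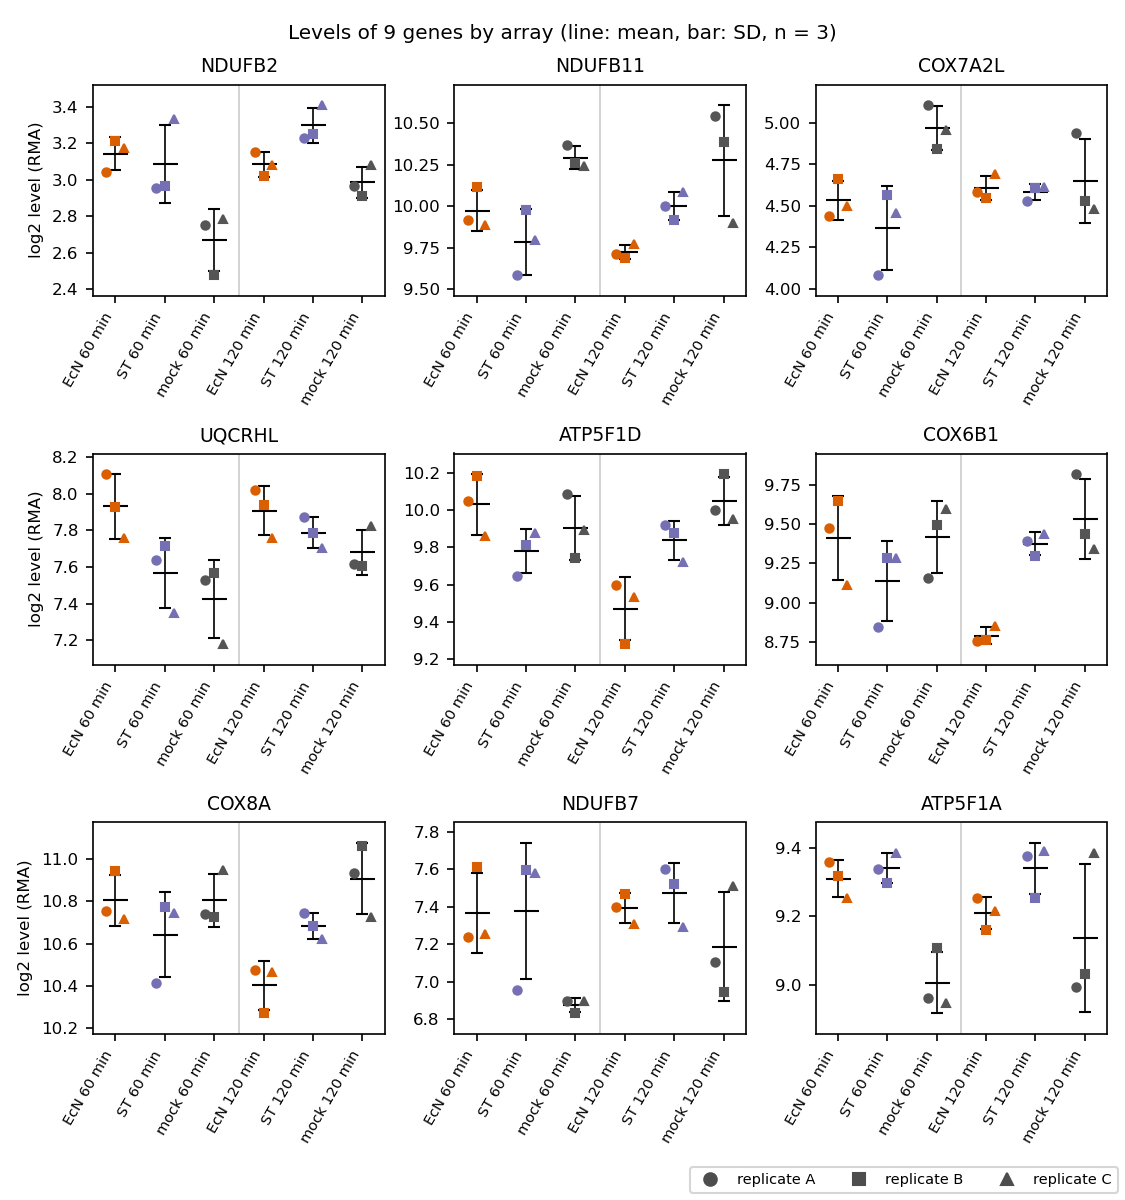
Log2 levels of 9 members by array, in panels by gene and columns by group, with EcN, ST and mock at 60 min left of EcN, ST and mock at 120 min; points are arrays, shapes the replicate letter, lines the mean and bars the SD of 3 arrays. At 60 min NDUFB2, NDUFB7 and ATP5F1A have all 6 flagellin arrays above mock and NDUFB11 and COX7A2L all 6 below, and at 120 min the EcN arrays of ATP5F1D, COX6B1 and COX8A lie below all others of that time.

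By complex, the differences at 60 min scattered around 0. The median with EcN was -0.03 over the 31 members of complex I, -0.02 over 2 of complex II, 0.05 over 6 of complex III, 0.02 over 14 of complex IV and 0.01 over 14 of complex V. With ST these medians were -0.07, 0.03, 0.03, -0.17 and -0.06, in the same order. Over all 71 members the median was 0.00 with EcN and -0.07 with ST, against 0.01 and 0.00 over all genes. With EcN, 12 members had all 3 arrays above mock and 11 had all 3 below, where 16.7% and 15.2% of all genes did. With ST, 9 lay wholly above and 17 wholly below, against 14.2% and 15.9% of all genes. Both membrane anchors of complex II, SDHC and SDHD, differed from mock by at most 0.17 in either direction at 60 min.

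**Figure D3:**
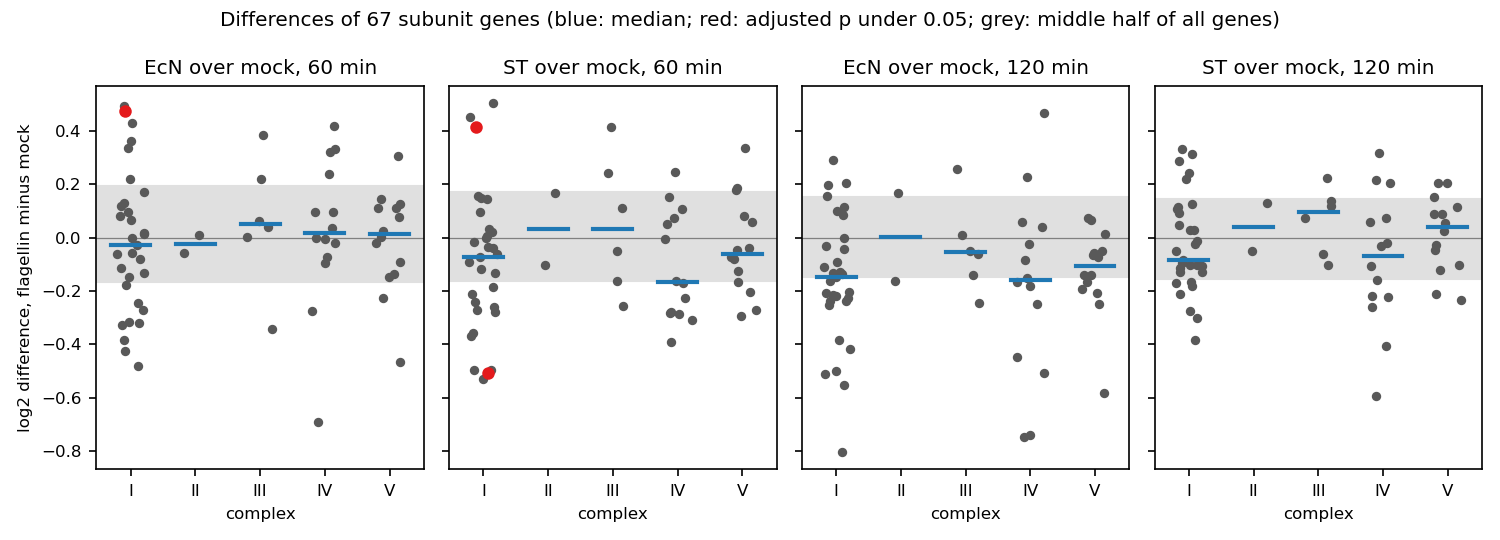
Log2 difference of each of 67 tested subunits, flagellin minus mock, by complex in 4 panels, by flagellin and time; dots are genes, blue lines medians by complex, red dots those with an adjusted p under 0.05, and the grey band the interquartile range of all genes tested. NDUFB2 is red with EcN and with ST at 60 min and NDUFB11 with ST at 60 min; at 120 min with EcN the medians lie at -0.15 for complex I, -0.16 for complex IV and -0.11 for complex V.

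At 120 min, 0 of 71 members passed the limma test with EcN, where 0.0248% of all genes rose and 0.0372% fell (0.0621% in either direction; 0.149% and 0.0559% with arrays centred, 0.0869% and 0.0497% after quantile normalization), and 0 with ST, where 0.310% rose and 0.248% fell (0.559% in either direction). At an uncorrected p under 0.05, 1 member was higher and 13 were lower with EcN, and 3 were higher and 3 lower with ST. Of the 16111 genes tested, 1327 reached that p upward and 1334 downward for EcN. For ST these numbers were 1448 and 1380. The members nonetheless lay mostly on one side with EcN: 52 of 71 had a mean below mock, and the median difference was -0.13, against 0.00 over all genes. All 3 EcN arrays lay below all 3 mock arrays for 19 members, against 9.11% of all genes, and above for 0 members, against 8.52%. Of the 19, 10 were in complex I, 1 in complex II, 1 in complex III, 4 in complex IV and 3 in complex V. With ST, 5 members lay wholly above mock and 8 wholly below, against 8.81% and 7.68% of all genes. Without EcN 120 min B, the array with the lowest values, the median was -0.08.

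ATP5F1D, the delta subunit of the central stalk of ATP synthase, had levels of 9.60, 9.28 and 9.53 on the EcN 120 min arrays, against 10.00, 10.20 and 9.95 on the mock 120 min arrays. The groups were well apart, by more than the range of either (-0.58 ± 0.12, 1.5-fold, adjusted p = 0.0726). COX6B1, a subunit of complex IV on the side of the intermembrane space, stood at 8.75, 8.76 and 8.85 with EcN, against 9.82, 9.44 and 9.34 with mock. The EcN arrays were close together and the mock arrays spread, with a difference of -0.75 ± 0.16 (1.68-fold, adjusted p = 0.0736). COX8A, the smallest subunit of complex IV, had 10.47, 10.27 and 10.46 with EcN, against 10.93, 11.06 and 10.73 with mock (-0.51 ± 0.12, adjusted p = 0.0812). On the ST 120 min arrays these 3 genes lay above all EcN arrays, at 9.72 to 9.92, 9.30 to 9.44 and 10.62 to 10.75, and overlapped mock for COX6B1 and COX8A.

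Other low members with EcN at 120 min were NDUFA3 (-0.80 ± 0.23, adjusted p = 0.112), NDUFB11 (-0.55 ± 0.14, adjusted p = 0.0891) and NDUFB9 (-0.51 ± 0.14, adjusted p = 0.107) of complex I. COX5B, which binds zinc in complex IV, differed by -0.45 ± 0.13 with EcN (adjusted p = 0.116) and by -0.40 ± 0.13 with ST (adjusted p = 0.130). NDUFS7, a core subunit that carries an iron-sulphur cluster of complex I, differed by -0.42 with EcN (adjusted p = 0.136). NDUFS6, also of complex I, was higher with EcN (0.29 ± 0.12, adjusted p = 0.232), with overlapping groups. With ST the members with the smallest p after COX5B were NDUFB2 (0.31 ± 0.12, adjusted p = 0.178) and COX4I1 (-0.22 ± 0.09, adjusted p = 0.204).

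Other gene lists differed in sign with EcN at 120 min. Over 53 cytosolic ribosomal protein genes the median difference was -0.15, and 18 of them had all 3 EcN arrays below mock, against 9.11% of all genes. Over 71 mitochondrial ribosomal protein genes the median was -0.08, and 11 lay wholly below. The median was -0.06 over 19 glycolytic enzymes, but 0.04 over 49 assembly factors, 0.09 over 18 genes for electron carriers or their synthesis and 0.04 over 14 tricarboxylic acid cycle enzymes, of which 3, 2 and 4 lay wholly below. Most of the 18 genes serve coenzyme Q synthesis. The median deviation of the 71 members from their own means was -0.07, -0.14 and -0.03 on EcN 120 min A, B and C, and between -0.03 and 0.09 on the other arrays except ST 60 min A (-0.08). Whether these shifts have a technical part was not tested.

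ST was compared with EcN at each time to ask whether the flagellins differed. No member passed the limma test at either time (0 of 71, and 0% of all genes). At an uncorrected p under 0.05, 0 members were higher and 5 lower at 60 min, and 6 higher and 0 lower at 120 min. Over all 16111 genes, 670 were higher and 811 lower at 60 min at that p, and 854 and 1028 at 120 min. At 120 min the members were mostly higher with ST: 56 of 71 had a mean above EcN, the median difference was 0.12 against 0.00 over all genes, and 20 members had all 3 ST arrays above all EcN arrays, against 10.5% of all genes. No member had them wholly below, against 10.4%. Of the 20, 10 belonged to complex I, 1 to complex II, 2 to complex III, 2 to complex IV and 5 to complex V. The smallest p values belonged to COX6B1 (0.59 ± 0.16, adjusted p = 0.231), ATP5F1D (0.37 ± 0.12, adjusted p = 0.281) and NDUFB9 (0.41 ± 0.14, adjusted p = 0.311), and the EcN arrays are the same as in the comparison with mock. At 60 min 49 of 71 members had a lower mean with ST, with a median of -0.05 against -0.01 over all genes, and 4 lay wholly above and 6 wholly below EcN, against 8.14% and 9.89% of all genes. The smallest p there belonged to COX7A2, the widely expressed isoform of a complex IV subunit, at 5.73, 5.95 and 5.74 with ST, against 6.25, 6.28 and 5.92 with EcN, and the groups overlapped (-0.34 ± 0.12, adjusted p = 0.426).

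Within a treatment, 120 min was set against 60 min. With EcN, 58 of 71 members had a lower mean at 120 min, the median was -0.10 against -0.01 over all genes, and 0 members lay wholly above and 12 wholly below, against 7.75% and 8.24% of all genes. The lowest p was that of ATP5F1D, with 9.60, 9.28 and 9.53 at 120 min, against 10.05, 10.19 and 9.86 at 60 min (-0.56 ± 0.12, adjusted p = 0.319). With ST, 48 of 71 were higher at 120 min (median 0.05), and 4 lay wholly above and 1 wholly below, against 6.11% and 5.82% of all genes. With mock, 39 of 71 were higher (median 0.03), and 5 lay wholly above and 0 wholly below, against 5.62% and 7.04%. No member passed the limma test in any of these 3 comparisons, where 0% of all genes did. At an uncorrected p under 0.05, 0 members were higher and 10 lower with EcN. With ST 2 were higher and 0 lower, and with mock 2 were higher and 1 lower. Of the 16111 genes tested, 610 reached that p upward and 671 downward for EcN. For ST these numbers were 330 and 443, and for mock 962 and 988. The change of the effect between the times, tested as an interaction, called 0 members for EcN (0 higher and 7 lower at an uncorrected p under 0.05) and 0 for ST (1 higher, 0 lower). Over all 16111 genes, 958 were higher and 978 lower for EcN at that p, and 879 and 852 for ST. ATP5F1D had the smallest p for EcN (-0.71 ± 0.17, adjusted p = 0.185) and COX7A2L for ST (0.53 ± 0.19, adjusted p = 0.399).

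The mock arrays of 120 min did not behave alike, which bears on every comparison that uses them. At 60 min, 7 members had all 6 flagellin arrays above all 3 mock arrays, against 8.22% of all genes, and 7 had them below, against 9.40%. The higher ones were NDUFA8, NDUFB2, NDUFB7, NDUFS1, UQCR11, COX7B and ATP5F1A, and the lower ones NDUFA2, NDUFA3, NDUFB11, NDUFB3, NDUFB9, COX4I1 and COX7A2L. Mock 120 min C lay beyond the mock 60 min range on the flagellin side for 7 of the 7 higher and 7 of the 7 lower members, as did 6 or 7 of each on the flagellin arrays of 120 min. Mock 120 min B did so for 3 and 4, and mock 120 min A for 2 and 0. These genes were chosen with the mock 60 min arrays, which by itself puts other arrays nearer to the flagellin side, so the contrast is that between the 3 mock arrays of 120 min. Over all 1325 genes chosen the same way as higher, mock 120 min C lay beyond the range for 94.4%, B for 59.2% and A for 34.4%, and over 1514 lower ones for 95%, 68.2% and 39.3%. NFKBIA was at 8.22 on mock 120 min C, one of the low values, and at 10.83 on mock 120 min A.

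NDUFB11 shows the pattern in a single gene. It stood at 9.71, 9.69 and 9.77 on the EcN 120 min arrays and at 10.00, 9.92 and 10.08 on the ST 120 min arrays, against 10.54 and 10.39 on mock 120 min A and B and 9.90 on mock 120 min C. ATP5F1A had 9.38, 9.25 and 9.39 on the ST 120 min arrays, against 8.99 and 9.03 on mock 120 min A and B and 9.38 on C. Without mock 120 min C, 8 members passed the test as lower with EcN at 120 min, where 3.58% of all genes did: ATP5F1D, COX5B, COX6B1, COX8A, NDUFA3, NDUFB11, NDUFB9 and NDUFS7 (differences from -0.50 to -1.07, adjusted p from 0.00520 to 0.0465), and 0 as higher. With ST at 120 min, NDUFA8, NDUFS1 and ATP5F1A then passed as higher and NDUFB11 as lower, where 2.54% and 1.90% of all genes did. Without mock 120 min A, 0 members passed at 120 min with EcN, where 0.236% of all genes did, and 0 with ST, where 5.62% of all genes did. COX7A2L then passed as lower in mock 120 over 60 min, and ATP5F1D as lower in the change of the EcN effect. In the main fit 0% of all genes passed in either comparison. Their share without mock 120 min A is not given here, so these calls cannot be set beside it. Why mock 120 min C lay with the flagellin arrays was not tested.

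**Figure D4:**
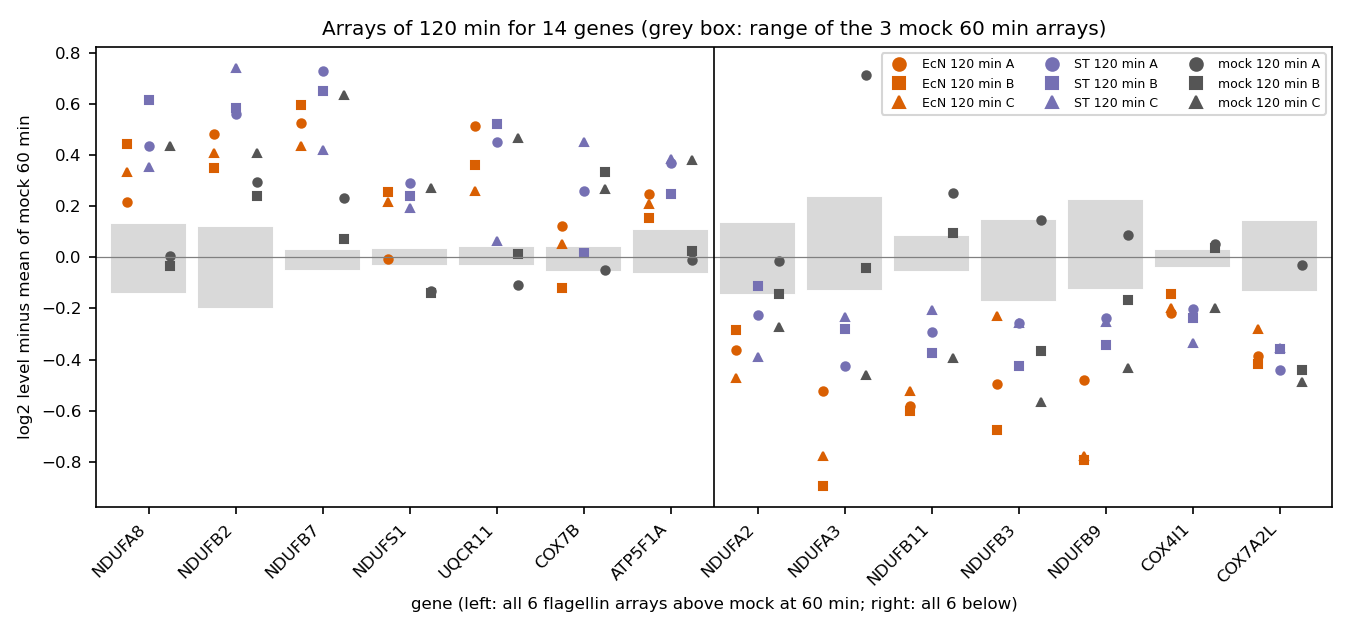
Log2 level on each 120 min array minus the mean of the mock 60 min arrays, for the 14 members with all 6 flagellin arrays of 60 min above (left) or below (right) the mock 60 min arrays; colours are treatments, shapes replicate letters, and grey boxes the range of the mock 60 min arrays. Mock 120 min C (grey triangles) lies outside the box on the flagellin side for all 14 members shown, mock 120 min A (grey circles) for 2.

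Tissue isoforms of complex IV were read separately, each against its own values in the other groups. COX4I2, COX6A2 and COX7A1, known from lung or muscle, lay near the array median and did not differ from mock in any comparison that passed the test. COX6A2 spanned 2.64 to 3.95 over the arrays with overlapping groups throughout (0.47 ± 0.30 with EcN at 120 min, adjusted p = 0.459). COX7B2 and COX8C, known from testis, were below the array median on all 18 arrays. Of the widely expressed isoforms, COX6A1 was lower with EcN at 60 min (-0.69 ± 0.25, adjusted p = 0.101) and at 120 min (-0.74 ± 0.25, adjusted p = 0.150), and at levels of 1.95 to 3.37 it was also near the median. ATP5MC1, ATP5MC2 and ATP5MC3 encode the same c-ring protein behind different import signals. ATP5MC1 was at 6.95, 6.79 and 7.01 with EcN at 60 min, against 7.01, 7.65 and 7.49 with mock (-0.47 ± 0.15, adjusted p = 0.0733). ATP5MC2 and ATP5MC3 differed by -0.09 and -0.15 in that comparison. The copy ATP5MGL was at 3.12, 2.69 and 3.11 with EcN at 60 min, against 3.52, 4.08 and 3.31 with mock, wholly below mock and also below the ST 60 min arrays (-0.66 ± 0.24 against mock, adjusted p = 0.108). Its groups of 120 min overlapped. The inhibitor ATP5IF1 differed from mock by at most 0.23.

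Genes that serve the chain without being subunits were read in the same way at 60 min. Of 49 tested assembly factors, 1 rose and 2 fell with EcN, and 0 rose and 2 fell with ST. These shares were no higher than the 6.45% and 5.26% of all genes called. At an uncorrected p under 0.05, 11 were higher with ST, against 1644 of all 16111 genes. SDHAF3, which helps to mature the iron-sulphur subunit of complex II, had 5.39, 5.29 and 5.01 with EcN and 4.89, 4.94 and 5.06 with ST, against 5.92, 6.23 and 6.13 with mock. It fell by 0.87 ± 0.19 with EcN (adjusted p = 0.0218) and by 1.13 ± 0.19 with ST (adjusted p = 0.00819), and on the mock 120 min arrays it was at 5.84, 6.03 and, on array C, 5.02. DMAC2, an assembly factor of the distal arm of complex I, fell by 0.56 with EcN (adjusted p = 0.0205) and by 0.52 with ST (adjusted p = 0.0240). TTC19, which acts in complex III assembly, rose with EcN (0.52 ± 0.12, adjusted p = 0.0250).

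Among 13 regulators of mitochondrial gene expression, 1 rose with each flagellin at 60 min and 0 fell (at an uncorrected p under 0.05, 2 were lower with EcN and 1 with ST). Of all genes, 3.08% rose and 3.37% fell with EcN, and 2.23% rose and 3.03% fell with ST. At the uncorrected p, 1958 of all 16111 genes were lower with EcN and 1975 with ST. ESRRA, the oestrogen-related receptor alpha, was at 5.45, 5.70 and 5.49 with EcN and 5.76, 5.36 and 5.87 with ST, against 4.79, 3.98 and 3.98 with mock. It rose by 1.3 ± 0.30 with EcN (2.46-fold, adjusted p = 0.0256) and by 1.41 ± 0.30 with ST (2.66-fold, adjusted p = 0.0192). On mock 120 min A, B and C it stood at 4.02, 5.01 and 5.49, the last within the range of the flagellin arrays. Of 14 tested tricarboxylic acid cycle enzymes, 1 fell with each flagellin and 2 rose with ST, where 6.45% of all genes were called with EcN and 5.26% with ST. CS, citrate synthase, was at 9.27, 9.07 and 9.20 with EcN and 9.13, 9.18 and 9.30 with ST, against 9.50, 9.69 and 9.56 with mock, and fell by 0.41 (adjusted p = 0.0246) and by 0.38 (adjusted p = 0.0278). IDH3A and SUCLG1, which act in the same cycle, rose by 0.31 (adjusted p = 0.0446) and 0.43 (adjusted p = 0.0480) with ST.

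Of 18 genes for electron carriers or their synthesis, mostly of coenzyme Q, ETFB rose with ST (0.59 ± 0.15, adjusted p = 0.0330). ETFB is the beta subunit of the electron transfer flavoprotein that feeds electrons from fatty acid oxidation into the chain. With EcN 0 of the 18 passed (1 higher and 2 lower at an uncorrected p under 0.05). Of 19 glycolytic enzymes, ENO2 rose with EcN (0.50 ± 0.14, adjusted p = 0.0421) and 0 passed with ST (2 higher and 1 lower at an uncorrected p under 0.05). Beside these 2 lists, 6.45% of all genes were called with EcN and 5.26% with ST. The 7 tested genes beside ATP synthase gave 0 calls at 60 min with EcN or ST (limma, and 0 at an uncorrected p under 0.05). They are carriers, channels and the inhibitor ATP5IF1, which is also counted among the members. At 120 min none of these lists had a member that passed with either flagellin; at an uncorrected p under 0.05 each list held 0 to 7 higher and 0 to 6 lower members, 4 and 6 for the assembly factors with EcN and 7 and 1 with ST. The median differences of the assembly factors were 0.02 and 0.03 at 60 min and 0.04 and 0.11 at 120 min, with EcN and ST in that order, and the members' own medians were 0.00, -0.07, -0.13 and -0.03. The 13 chain genes of mitochondrial DNA are not analysed here.

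**Figure D5:**
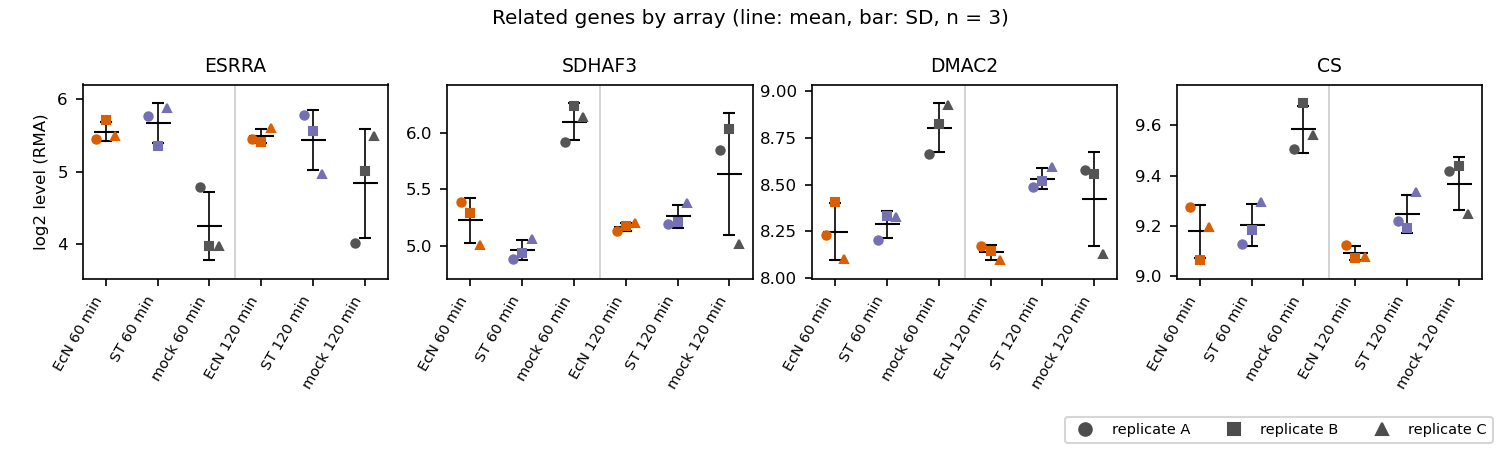
Log2 levels of ESRRA, SDHAF3, DMAC2 and CS by array, with EcN, ST and mock at 60 min left of EcN, ST and mock at 120 min; points are arrays, shapes replicate letters, lines means and bars the SD of 3 arrays. At 60 min ESRRA has all 6 flagellin arrays above mock (lowest 5.36 against a highest mock value of 4.79) and the other genes all 6 below, and of the mock 120 min arrays C is the one nearest to them in all 4 panels.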

How the data were processed

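The 18 samples were hybridised to Affymetrix Human Gene 2.1 ST arrays. Per the submitters' processing notes, the authors deposited log2 values from RMA (oligo 1.30.0); the genome build and annotation version are not stated. RMA summarises the probes of a transcript cluster and equalises the arrays' distributions, so a shift common to all genes is removed. The table holds 53617 rows, of which 23871 have 1 gene symbol in the platform annotation, 1842 several and 27904 none listed; 13 rows of the symbol rule that join several symbols were not used. Symbols were updated through the RefSeq gene table (655 changed), the row with the highest mean stood for a gene, and rows above their array's median on at least 3 of 18 arrays were kept, which left 16111 genes. No further normalization was done. The number of arrays limits the precision, and probe levels of different genes are not comparable.

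The model was fitted in R 4.3.3 with limma 3.58.1 (lmFit, eBayes; 6 group means, 12 residual and 4.20 prior degrees of freedom), with two-sided p-values adjusted by Benjamini-Hochberg over all genes within each of 11 comparisons and called under 0.05. The code was tested on simulated data. Same-letter arrays of different groups gave a median correlation of 0.04 of their deviations from the group means, over 0.1 in 10 of 45 pairs. Other-letter arrays gave -0.02, over 0.1 in 14 of 90 pairs. The letters were not taken as pairs in the main fit, although array C of all 4 flagellin groups shared high NFKBIA. Named in full were the called members, or the 3 with the smallest p where none was called, core subunits, isoform sets and the 5 most variable members; of the other lists, called genes. Genes shown to describe single arrays, the next members by p and those of the promoter display were chosen after their values were seen. Members, lists and alternatives were chosen with earlier results of these data known. Alternatives varied the filter, scaling, row choice, variance prior, array weights, replicate block, arrays fitted and each single array.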

Additional observations from a re-analysis of the deposited data

How the results depend on the processing

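The counts of called members depended on the settings. Of 896 values for 32 single-gene results under 28 alternatives, 830 kept their side of the threshold, 58 lost the call, 8 gained it and 0 changed sign. All losses fell on the calls at 60 min. NDUFB2 lost its call in 6 alternatives with EcN and 20 with ST, UQCRHL in 6, COX7A2L in 6 and NDUFB11 in 20. The other results were not called in the main fit. All 32 were chosen as called or by smallest p, so the kept sides and signs do not measure stability. With EcN at 60 min the 2 calls became 4 with the stricter filter, 4 with arrays centred on their median and 4 with quantile normalization. They became 12 with array weights, 8 with a trended robust prior and 0 with the groups compared alone. Over all genes, the calls under these 6 settings were 1197 (of 14841 genes), 1129, 946, 2176, 1505 and 973, in that order. With ST at 60 min the 3 calls became 1 without a filter, 5 with the stricter filter and 11 with array weights. They became 7 with a trended robust prior, 1 without the 5 arrays high in NFKBIA and 0 with the groups alone. Over all genes, the calls were 614 (of 22357 genes), 977 (of 14841), 1957, 1330, 335 and 598, in that order. The trended robust prior gave 4 calls with EcN at 120 min, all lower (ATP5F1D, COX6B1, COX8A and NDUFB11). Centring the arrays put the members' median at -0.048 with EcN at 60 min (all genes -0.042), and the median change of the effect between the times at -0.068 for EcN and 0.084 for ST (all genes 0.06 and 0.06). Leaving out 1 array at a time, the calls ranged from 0 to 8 with EcN at 60 min, 0 to 8 with ST at 60 min, 0 to 8 with EcN at 120 min, 0 to 4 with ST at 120 min, 0 to 1 for mock over time and 0 to 1 for the change of the EcN effect. For EcN at 60 min they were 0 without any 1 EcN 60 min array or without mock 60 min B or C, 4 without mock 60 min A, 8 without mock 120 min A and 7 without mock 120 min C, where 0 to 1.5%, 4.16%, 11.5% and 10% of all genes were called. For ST at 60 min they were 0 without mock 60 min B or C or ST 60 min C, 8 without mock 120 min A, 7 without mock 120 min C, 4 without mock 120 min B, and 1 without any other array, where 0.49 to 0.826%, 8.11%, 8.45%, 5.7% and 0.937 to 5% of all genes were called. The members' median with EcN at 120 min ran from -0.16 to -0.079, and that of the change of the EcN effect from -0.16 to -0.087. With the replicate block the calls were 2 with EcN and 2 with ST at 60 min, NDUFB11 being lost (adjusted p = 0.0594), and it changed no other call; the letters are not shown to pair samples. Over all genes, the 1039 calls with EcN and 848 with ST at 60 min became 2176 and 1957 with array weights, and 1505 with EcN and 1330 with ST with the trended robust prior, which gave 214 with EcN at 120 min in place of 10. The cause of these changes was not tested. Members near the array median, such as NDUFB2, COX6A1 and COX7A1, are limited by signal over background.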

Other observations

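Mitochondrial ribosomal protein genes have products that translate the chain's mitochondrially encoded subunits. Of 71 tested, 1 rose and 5 fell with EcN at 60 min, and 2 rose and 5 fell with ST, where 3.08% and 3.37% of all genes rose and fell with EcN and 2.23% and 3.03% with ST. MRPS23, of the small subunit, had levels of 7.98, 7.97 and 8.06 with EcN and 8.33, 8.25 and 8.08 with ST, against 7.44, 7.52 and 7.69 with mock at 60 min (0.45 ± 0.12, adjusted p = 0.0346, and 0.67 ± 0.12, adjusted p = 0.0101). MRPS23 also rose with ST at 120 min (0.55 ± 0.12, adjusted p = 0.0459). MRPL46, of the large subunit, was at 6.67, 6.63 and 6.57 with EcN and 6.71, 6.77 and 6.61 with ST, against 7.46, 7.32 and 7.37 with mock, and fell by 0.76 (adjusted p = 0.0197) and by 0.68 (adjusted p = 0.0240). On mock 120 min A, B and C it stood at 7.43, 7.21 and 6.53, array C lying with the flagellin arrays.

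Cytosolic ribosomal protein genes gave 5 higher and 0 lower calls among 53 with EcN at 60 min and 2 higher and 0 lower with ST (2 and 2 lower at an uncorrected p under 0.05). Of all genes, 3.08% were called higher and 3.37% lower with EcN, and 2.23% and 3.03% with ST. At the uncorrected p, 1958 of all 16111 genes were lower with EcN and 1975 with ST. RPS6 rose with both, by 0.38 (adjusted p = 0.0378) and 0.38 (adjusted p = 0.0430). At 120 min ST lay above EcN for 44 of these 53 genes (median 0.12) and for 61 of the 71 mitochondrial ones (median 0.10), with 9 and 24 of them wholly above, against 10.5% of all genes. With ST over EcN at 120 min 0 genes of either list passed the limma test (6 and 13 higher, 1 and 0 lower at an uncorrected p under 0.05). Over all 16111 genes, 854 were higher and 1028 lower at that p.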
